A study of Mus musculus with 11 samples.

Results

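The histone genes described here are the 80 rows of the 9-array expression table whose deposited symbol starts with Hist1, Hist2, Hist3, Hist4 or H2af, or is H1f0, H1fx, H3f3a or H3f3b. They are 80 of 28944 transcript clusters tested and carry 56 symbols. Of these rows 65, with 44 symbols, belong to the clustered histone genes (symbol starting with Hist), and 15, with 12 symbols, to the variant histones. The clustered rows comprise 5 for the linker histone H1, 20 for H2A, 15 for H2B, 13 for H3 and 12 for H4. The variant rows comprise 2 for H1, 9 for H2A and 4 for H3. 1 further row, which lists H3f3a several times over, was not a member under this rule.

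Histones package DNA into nucleosomes, and new nucleosomes are needed whenever the genome is copied. The clustered genes supply most histone protein during S phase, and their transcripts typically end in a stem-loop instead of a poly(A) tail, which ties their amount to DNA replication. The variant genes lie outside the clusters, are mostly polyadenylated and are made throughout the cell cycle: H2A.Z and macroH2A mark regulatory or silent chromatin, and H3f3a and H3f3b encode the replacement form of H3.

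Sorted LSK cells (lineage-negative, Sca-1-positive, Kit-positive bone marrow cells, the fraction that holds stem cells and early progenitors) of C57BL/6 mice were profiled. The knockout samples are labelled KLF5 KO with MxlCre, and the wild-type samples KLF5 WT with MxlCre, so the Cre transgene is named in both; the column headers of the 2-array table read MxCre_KLF5 and MxCre_WT instead. Mx1-Cre is driven by an interferon-inducible promoter; neither an inducing treatment nor the age of the animals is given in the labels used here. The comparison set 4 knockout arrays (replicates 2 to 5) against 5 wild-type arrays (replicates 2 to 6), all Affymetrix Mouse Gene 1.0 ST, and replicate 1 of each genotype was normalized in a separate table of 2 arrays. All values are log2 signals, and a difference is knockout minus wild type.

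Pooled over families, promoters of clustered genes held 3 short motifs more often than promoters in general, with differences between families. The sequences below are shown because the first 3 belong to clustered genes with widely spread signals and the last 2 to variants. They are RefSeq sequences of GRCm38.p6, the 120 bases just before the annotated start, 5′ to 3′ on the gene's strand. Capitals mark matches to 3 motifs searched on both strands. The motif CCAAT is a common promoter element. The TATA box was searched as TATAAA. The octamer was searched as ATTTGCAT. For each clustered family the gene with 1 row, a signal above the median and the largest spread between arrays was taken. The windows of Hist2h3c1 and Hist1h4f, taken in the same way for H3 and H4, held none of these letters and are not printed.
Hist1h1c: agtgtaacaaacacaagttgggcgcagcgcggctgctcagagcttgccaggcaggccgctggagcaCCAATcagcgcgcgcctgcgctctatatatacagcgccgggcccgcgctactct
Hist1h2ab: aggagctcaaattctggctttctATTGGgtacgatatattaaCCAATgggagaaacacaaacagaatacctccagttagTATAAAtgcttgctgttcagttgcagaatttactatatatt
Hist1h2bm: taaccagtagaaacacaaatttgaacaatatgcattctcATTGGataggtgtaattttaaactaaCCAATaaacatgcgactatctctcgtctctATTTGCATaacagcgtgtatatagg
H2afz: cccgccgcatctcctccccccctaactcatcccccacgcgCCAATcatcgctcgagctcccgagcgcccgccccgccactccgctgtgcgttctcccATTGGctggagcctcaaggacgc
H3f3b: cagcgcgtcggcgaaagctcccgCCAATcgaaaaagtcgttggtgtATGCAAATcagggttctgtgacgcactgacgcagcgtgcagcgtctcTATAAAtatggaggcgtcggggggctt
These windows lie at chr13:23738687-23738806 (plus strand, current symbol H1f2), chr13:23750968-23751087 (plus, H2ac4), chr13:21721924-21722043 (plus, H2bc14), chr3:137864367-137864486 (plus, H2az1) and chr11:116024505-116024624 (minus, H3f3b).

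Over the 250 bases before the start, a promoter was at hand for 48 of the 55 current gene symbols of the members. The CCAAT letters occurred in 30 of 38 clustered promoters (78.9%) and in 5 of 10 variant promoters (50%), against 33.8% of the 32851 promoters in the table. By family CCAAT was in 5 of 5 H1, 11 of 11 H2A, 9 of 9 H2B and 3 of 5 H3 promoters, but in 2 of 8 H4 promoters (25%), below the share of all. TATAAA occurred in 19 of the 38 clustered promoters (50%) and in 1 of the 10 variant ones (10%), against 12.4% overall. It was in 3 of 5 H1, 6 of 11 H2A, 5 of 9 H2B, 1 of 5 H3 and 4 of 8 H4 promoters. The octamer, the letters bound by the Oct factors, occurred in 10 clustered promoters (26.3%) and in 1 of the 10 variant ones (10%), that of H3f3b, against 1.6% overall. Of the 10 clustered ones, 5 were among 11 H2A promoters and 5 among 9 H2B promoters, and none of the 5 H1, 5 H3 or 8 H4 promoters held it. H2A and H2B genes often lie head to head and share the sequence between them, so these counts are not independent. A match is a description of the letters and not a measured binding site.

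Array medians ran from 5.93 to 6.03 over the 9 arrays, and the medians of 5222 negative-control rows between 5.27 and 5.62. Klf5 was at 6.58 to 6.76 in knockout and 6.77 to 6.98 in wild type, a difference of -0.20 (95% interval -0.37 to -0.03, limma adjusted p = 0.916). Whether its probes lie in the deleted part was not tested. Kit, a defining LSK marker, had means of 10.04 and 10.22 in knockout and wild type, and Ly6a, which encodes Sca-1, 7.59 and 7.67. Single arrays differed more in Ly6a. It ran from 6.57 in replicate 3 to 8.54 in replicate 5 of knockout, and from 6.85 in replicate 5 to 8.29 in replicate 2 of wild type. Averaged over 13 LSK markers, each centred on its own mean, the deviation ran from -0.37 in wild-type replicate 5 to 0.32 in knockout replicate 5. The part of these markers in the histone values was not tested. Of 12 B-cell markers 9 lay above the negative controls on average, and the early B-cell gene Vpreb1 ranged from 5.93 in wild-type replicate 3 to 11.63 in wild-type replicate 6, with 10.12 in knockout replicate 5. Nothing in the labels ties an array to an animal of its own; the p-values thus rest on the spread among the arrays, part of which may be technical. In such bulk samples fewer cells of a type and less RNA per cell cannot be told apart.

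Rows for paralogous histone genes could not be read as separate measurements. Of the 56 symbols, 12 have several rows, 36 rows in all, and each such set carries a single transcript accession: Hist1h2ao has 6 rows and Hist2h2aa1 has 5. The 2 rows of Hist1h4m held equal values in all 9 arrays. After each row was centred on its own mean, 48 pairs of rows differed by at most 0.1 in every array, and 24 of these pairs joined different symbols. Linking such pairs left 61 groups of rows from the 80, and within a linked group rows could differ by up to 0.19. The widest, of 11 rows, ran over Hist1h2af, Hist1h2an, Hist1h2ao and Hist2h2aa1, and another, of 4 rows, over Hist1h3a, Hist1h3d, Hist1h3f and Hist2h3b. The column of the file on cross-hybridisation reads false for each of the 80 rows. The probes themselves were not used here, so how far these rows share probes was not tested, and a count of rows below is not a count of genes.

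**Figure D1:**
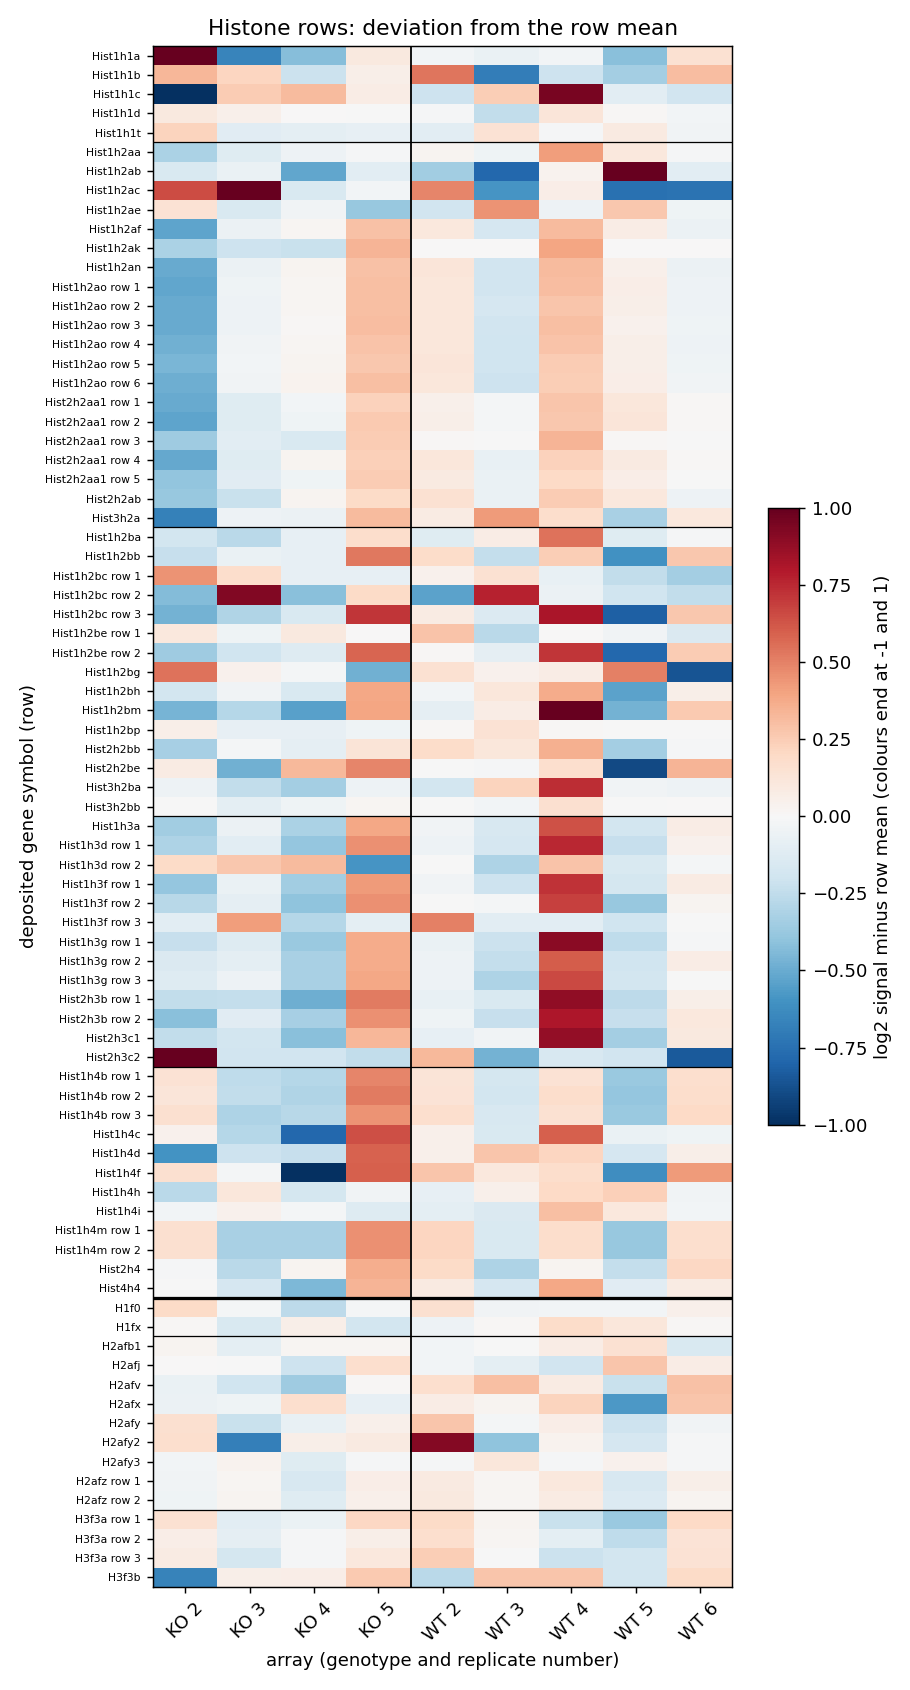
Each of the 80 histone rows (vertical axis, deposited symbols, clustered above the thick line and variant below it) in the 9 arrays (horizontal axis, KO knockout and WT wild type with replicate number), coloured by log2 signal minus the row's own mean. Bands of nearly equal colour in H2A, H3 and H4 are the rows with near-identical profiles; wild-type replicate 4 and knockout replicate 5 are high in most clustered rows, and the variant rows are paler.

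No histone row differed between the genotypes beyond the spread between arrays. With limma and Benjamini-Hochberg adjustment 0 of the 80 rows passed at 0.05, as did 0 of all 28944 transcript clusters (0%), and the smallest adjusted p among the histones was 0.916. At an unadjusted p under 0.05 the count was also 0 of 80, where 4.08% of all transcript clusters reached that level, 1.45% higher and 2.63% lower in knockout; the methods' t-test gave 0 as well. In 0 of the 80 rows were the groups free of overlap, against 0.985% of all. Values were lower in knockout in 60 of the 80 rows, against 55.9% of all transcript clusters. The median difference was -0.10 over the clustered rows and -0.04 over the variant rows, against -0.02 over all. With arrays centred on their medians the clustered and variant medians were -0.07 and -0.004, 20 of 65 and 6 of 15 rows were higher in knockout in place of 17 and 3, and the share of all transcript clusters higher in knockout went from 44.1% to 54.9%.

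**Figure D2:**
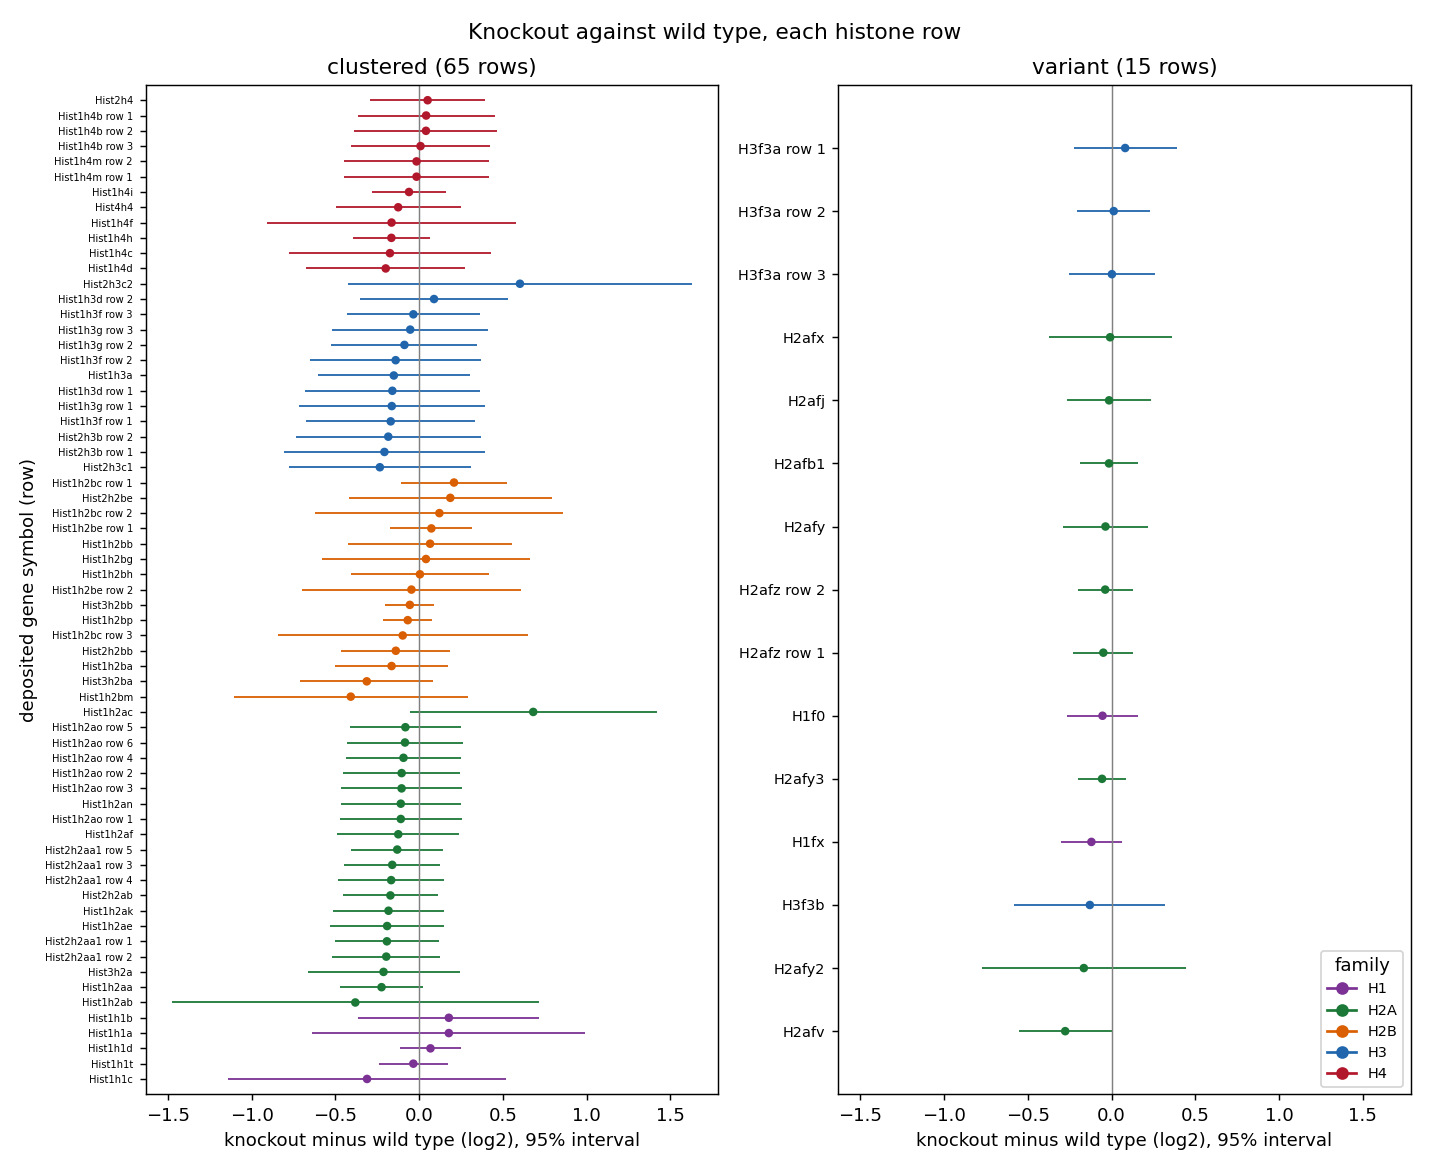
Knockout minus wild type (horizontal axis, log2) with its 95% interval for each of the 65 clustered rows (left) and 15 variant rows (right), coloured by family. Every interval includes 0, and the clustered intervals are mostly wider than the variant ones.

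Among the clustered H2A rows, which encode the core histone paired with H2B, 19 of 20 had lower values in knockout, with a median of -0.15. This count rested on knockout replicate 2, where 17 of the 20 rows had their lowest value of the 9 arrays, against 3784 of all 28944 transcript clusters. Among the 17 were the 11 H2A rows linked by near-identical profiles, which repeat each other. With 1 row for each linked group, 9 H2A rows had lower values in knockout, with a median of -0.18. In knockout replicate 2 the 7 megakaryocyte markers stood at -0.60 on average from their means, with 4 of them at their lowest. Among these was Pf4, at 6.79 against 8.12 to 10.72 elsewhere. The 8 mast cell, basophil and eosinophil markers stood at -0.27 there. In wild-type replicate 2 these lists stood at -0.43 and -0.47, with the clustered H2A rows at 0.07. The part of these markers in the H2A values was not tested. Without knockout replicate 2, 11 of 20 H2A rows were lower and the median was -0.03. Hist2h2ab (current symbol H2ac21) shows the pattern: it stood at 9.86, 10.02, 10.27 and 10.43 in knockout replicates 2 to 5 and at 10.39, 10.17, 10.49, 10.34 and 10.19 in wild-type replicates 2 to 6. The knockout arrays ran from the lowest of all to the second highest, and the groups overlapped. Its difference was -0.17 (95% interval -0.45 to 0.11, limma adjusted p = 0.916), and -0.08 without knockout replicate 2.

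Hist1h2ac, a replication-dependent H2A gene (H2ac6), was the exception among these rows. It was at 7.58, 7.96, 6.78 and 6.90 in knockout and at 7.42, 6.34, 6.99, 6.18 and 6.19 in wild type. Knockout replicates 2 and 3 and wild-type replicate 2 were high and the groups overlapped. The difference was 0.68 (95% interval -0.06 to 1.42, limma adjusted p = 0.916), and it lay between 0.46 and 0.88 with each array left out. Hist1h2aa (H2ac1), known as a testis-type H2A gene, averaged 7.19 ± 0.14 over the knockout arrays (SD, n = 4) and 7.42 ± 0.19 over those of wild type (SD, n = 5), which differ by -0.22 (-0.47 to 0.02). Hist1h2ab (H2ac4) was at 9.37 in wild-type replicate 5 and at 6.54 to 7.36 in the other 8 arrays. Its difference of -0.38 was 0.09 without that array. Hist1h2ae (H2ac8) lay below the negative-control medians in both groups.

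H2B, the partner of H2A in the nucleosome, had 8 of 15 rows lower in knockout and a median of -0.05. Hist1h2bm (H2bc14), whose promoter is printed above, was at 8.41, 8.59, 8.33 and 9.27 in knockout and at 8.78, 8.95, 10.003, 8.40 and 9.14 in wild type. Wild-type replicate 4 and, in knockout, replicate 5 stood highest. The difference was -0.41 (95% interval -1.11 to 0.29, limma adjusted p = 0.916). It was -0.17 without wild-type replicate 4 and -0.61 without knockout replicate 5. The Hist1h2be row of higher signal had the same peaks, at 11.60 in wild-type replicate 4 and 11.47 in knockout replicate 5, with 10.10 to 11.14 elsewhere. Its difference was -0.05, and the other Hist1h2be row gave 0.07. The 3 rows of Hist1h2bc, all under 1 accession, had means from 4.49 to 10.72 and differences from -0.10 to 0.21, so that symbol has no single value. Hist3h2ba (H2bu2) was at 5.46 to 5.75 in knockout and 5.62 to 6.54 in wild type, a difference of -0.31 (-0.71 to 0.09), or -0.16 without wild-type replicate 4.

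H3 and H4 form the tetramer at the core of the nucleosome. Of the 13 H3 rows 11 were lower in knockout, with a median of -0.15. In wild-type replicate 4, 10 of the 13 had their highest value, against 3411 of all 28944 transcript clusters. Among these 10 were the 4 H3 rows linked across symbols and 2 linked Hist1h3g rows, so the count repeats near-identical profiles. The Hist1h3g row of highest signal was at 8.04, 8.12, 7.85 and 8.56 in knockout and at 8.12, 7.86, 8.83, 7.99 and 8.17 in wild type. Apart from the peaks in knockout replicate 5 and wild-type replicate 4 the groups covered the same range, and the difference was -0.05 (-0.52 to 0.41). Hist2h3c2 (H3c15) was at 6.40 in knockout replicate 2 and at 3.59 to 4.75 in the other arrays, which is below their negative-control medians. Its difference of 0.60 (-0.42 to 1.63) was 0.06 without that array.

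Of the 12 H4 rows 8 were lower in knockout, with a median of -0.04. In knockout replicate 5, 9 had their highest value, against 2374 of all 28944 transcript clusters. Among these 9 were 5 near-identical rows of Hist1h4b and Hist1h4m, which repeat each other. A Hist1h4b row was at 11.35, 10.98, 10.93 and 11.75 in knockout and at 11.36, 11.04, 11.40, 10.84 and 11.40 in wild type, a difference of 0.04 (-0.39 to 0.47). Hist1h4f (H4c6) ranged more widely, from 6.40 in knockout replicate 4 to 8.11 in knockout replicate 5, with a difference of -0.16 (-0.91 to 0.58). The spread within knockout thus exceeded the distance between the group means in both. Hist1h4h (H4c8) had a difference of -0.17 (-0.40 to 0.07).

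The linker histone H1 binds the DNA between nucleosomes, and its 5 clustered rows varied one by one. Hist1h1c (H1f2) was at 7.83, 9.42, 9.48 and 9.24 in knockout and at 8.96, 9.41, 10.12, 9.06 and 8.97 in wild type. Knockout replicate 2 was lowest, and without it the difference went from -0.31 to 0.08. In Hist1h1a (H1f1), named after its values were seen, the same array was highest, at 9.10 against 7.05 to 7.87 in the other 8. Hist1h1d and Hist1h1t, the latter a testis-type H1, had no more than 5.67 in any array. The H1 rows had a median difference of 0.07, with 2 of 5 lower in knockout.

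Among the variant histones 12 of 15 rows were lower in knockout, with differences from -0.28 to 0.08. H2afv (H2az2), the second H2A.Z gene, had the smallest p of all histone rows. It was at 8.65, 8.51, 8.36 and 8.72 in knockout and at 8.88, 9.01, 8.79, 8.49 and 9.01 in wild type. All wild-type arrays but replicate 5 lay above every knockout array, and that replicate lay inside the knockout range. The difference was -0.28 (95% interval -0.56 to 0.00, unadjusted p = 0.0508 and adjusted p = 0.916 by limma). With each array left out it lay between -0.36 and -0.21. Without wild-type replicate 5 the unadjusted p was 0.00577 and the limma adjusted p 0.961. The 2-array table gave H2afv values of 10.17 for knockout and 10.19 for wild type.

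Its paralog H2afz (H2az1), the main H2A.Z gene, showed little spread in its row of higher signal. It was at 12.40, 12.46, 12.28 and 12.50 in knockout and at 12.52, 12.46, 12.54, 12.27 and 12.50 in wild type. The groups covered the same range, with a difference of -0.05 (-0.23 to 0.13), so the interval excludes a change of 1 log2 unit in either direction. The 3 rows of H3f3a gave 0.08, 0.01 and 0.00. H3f3b, the other gene of replacement H3, was at 10.54, 11.27, 11.28 and 11.47 in knockout and at 10.95, 11.49, 11.49, 11.03 and 11.40 in wild type. Replicate 2 was lowest in each genotype, and the difference was -0.13 (-0.58 to 0.32), or 0.07 without knockout replicate 2. H3f3b was thus spread more widely than each H3f3a row.

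H2afx, whose phosphorylated protein marks DNA breaks, was at 8.53 to 8.79 in knockout and 8.05 to 8.89 in wild type, a difference of -0.01 (-0.38 to 0.36). The macroH2A genes differed in spread. H2afy (Macroh2a1) had a difference of -0.04 (-0.29 to 0.22) and H2afy2 (Macroh2a2) of -0.17 (-0.77 to 0.44). H2afy2 ranged from 6.17 in knockout replicate 3 to 7.77 in wild-type replicate 2. The linker variants H1f0 and H1fx (H1f10) had differences of -0.05 (-0.27 to 0.16) and -0.12 (-0.30 to 0.06). H2afj, a mammalian H2A variant, gave -0.02, H2afb1 -0.02 and H2afy3 -0.06.

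**Figure D3:**
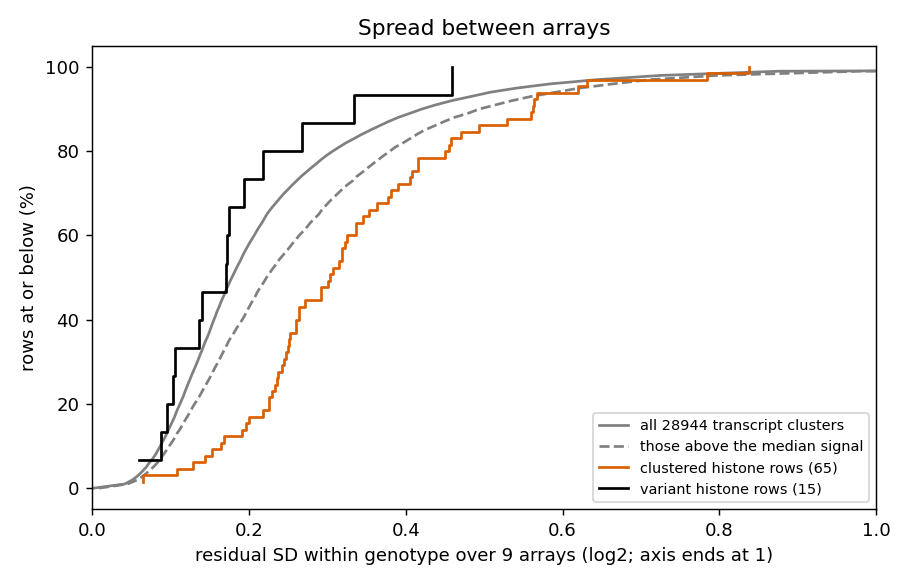
Cumulative share of rows (vertical axis, %) by residual SD within genotype over the 9 arrays (horizontal axis, log2). The curve of the 65 clustered rows lies to the right of that of all 28944 transcript clusters over most of its course, with medians of 0.30 and 0.18, and that of the 15 variant rows lies near the latter or to its left, with a median of 0.17.

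Arrays of the same genotype were spread more widely in the clustered rows than in the variant rows. The median residual SD within genotype was 0.30 over the clustered rows and 0.17 over the variant rows, against 0.18 over all transcript clusters and 0.22 over those above the median signal. Such a spread was not particular to histones. The median was 0.31 over the LSK markers and 0.48 over the neutrophil and monocyte markers, but 0.24 over the S phase list and 0.20 over the chaperone list. Of the 65 clustered rows 57 lay above the median residual SD of all transcript clusters, and 14 lay above its 90th percentile. Of the 15 variant rows 5 lay above that median. Residual SDs ran from 0.07 (Hist1h2bp) to 0.84 (Hist1h2ab) among the clustered rows and from 0.06 (H2afy3) to 0.46 (H2afy2) among the variants. These are descriptions without a test, and rows with near-identical profiles repeat each other. With 1 row for each group of such rows the medians were 0.33 and 0.17.

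**Figure D4:**
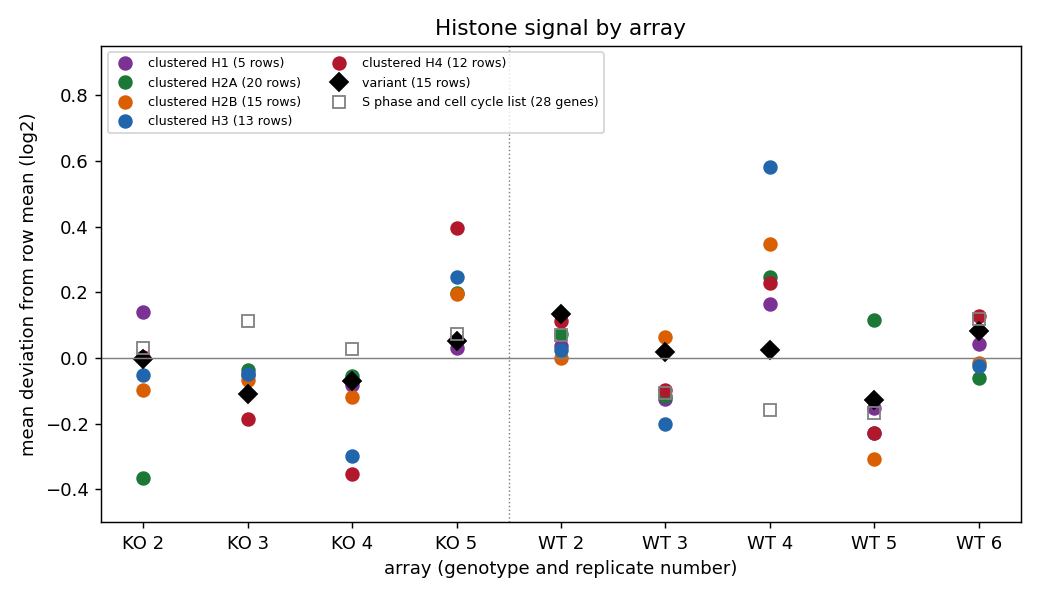
Mean deviation of each family from its row means (vertical axis, log2) in each array (horizontal axis). In wild-type replicate 4 clustered H3 stands at 0.58 and the S phase list at -0.16; in knockout replicate 5 H4 is highest, at 0.39; in knockout replicate 2 H2A stands apart at -0.37.

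Many clustered rows were high or low in the same arrays. Averaged over the 65 rows, each centred on its own mean, the deviations were -0.13, -0.07, -0.18 and 0.23 in knockout replicates 2 to 5. They were 0.05, -0.09, 0.33, -0.13 and 0.00 in wild-type replicates 2 to 6. A single array in each genotype thus stood highest. Of the 65 rows 49 had their highest value in 1 of these 2 arrays. These were 30 in wild-type replicate 4 and 19 in knockout replicate 5. Of all 28944 transcript clusters 3411 and 2374 were highest in these arrays. The 2 arrays were picked for their peaks in these rows, and rows with near-identical profiles repeat each other. The mean deviation of the variant rows had a narrower range, from -0.13 in wild-type replicate 5 to 0.13 in wild-type replicate 2, though it was farther from 0 than that of the clustered rows in wild-type replicates 2 and 6 and knockout replicate 3. Clustered minus variant averaged -0.01 ± 0.14 over the knockout arrays (SD, n = 4) and 0.00 ± 0.17 over those of wild type (SD, n = 5).

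The peaks differed between the core histone families. In wild-type replicate 4 the mean deviation was 0.58 for H3, 0.35 for H2B, 0.25 for H2A and 0.23 for H4. In knockout replicate 5 it was 0.39 for H4, 0.25 for H3, 0.20 for H2A and 0.20 for H2B. In knockout replicate 2 H2A was at -0.37 while H4 was at 0.00 and H1 at 0.14. In wild-type replicate 5 H2B was at -0.31, with H2A at 0.12 through Hist1h2ab. H2A and H2B, which pair in the nucleosome, thus stood on opposite sides of their means in that array. There 18 of 20 H2A rows and 1 of 15 H2B rows lay above their own means. The size of the H2A mean rested on Hist1h2ab, and many H2A rows have near-identical profiles.

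Genes of S phase and the cell cycle did not peak where the clustered histones did. The mean deviation of 28 such genes was -0.16 in wild-type replicate 4 and 0.07 in knockout replicate 5, within a range of -0.17 to 0.12 over the 9 arrays. Of these genes 21 were higher in knockout, with a median of 0.11, and 1, Pola1, the catalytic subunit of DNA polymerase alpha, had an unadjusted p under 0.05, with a difference of 0.35 (0.04 to 0.67, limma adjusted p = 0.916). Over all transcript clusters 44.1% were higher, with a median of -0.02, and 4.08% reached that p, so the count of 1 in 28 is near the background. Gmnn, an inhibitor of replication licensing, had 0.35 (-0.02 to 0.72), Tyms, which makes thymidylate, 0.29 and Cdt1, a licensing factor, -0.31 (-0.63 to 0.00).

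Factors that make or handle histones also held few genes at that level. Of 21 genes for histone mRNA processing and its control 11 were higher in knockout, with a median of 0.04 and 1 at an unadjusted p under 0.05. This too is near the 4.08% of all transcript clusters. That gene was Ncbp1, of the nuclear cap-binding complex, at 0.45 (0.01 to 0.90, limma adjusted p = 0.916). Ccne2, a cyclin E, had -0.29, Eri1, an exonuclease that acts on histone mRNA ends, -0.24, and Npat, the activator of clustered histone genes, 0.24 (-0.13 to 0.61). The mean of this list was lowest in wild-type replicate 4, at -0.13. Of 30 histone chaperone and exchange genes 19 were higher, with a median of 0.07 and 0 at an unadjusted p under 0.05 in limma; Ipo4 had 0.17, Atrx 0.13, Hjurp -0.22 and Nap1l4 0.18. None of the genes in these 3 lists passed adjustment.

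Markers of other blood cells also varied by array. The list means of 12 erythroid markers ran from 6.97 to 7.36 in knockout and from 6.79 to 7.54 in wild type, and those of 12 B-cell markers from 5.53 to 6.01 and from 5.58 to 6.76. Single erythroid markers ranged more widely and not all together. The globin genes Hba-a1, Hba-a2 and Hbb-b1 were each higher in knockout replicate 5 and wild-type replicates 2 and 6 than in every other array. Hbb-b1 ran from 6.39 in wild-type replicate 3 to 10.68 in wild-type replicate 6, and Car1 from 7.53 in knockout replicate 5 to 11.48 in knockout replicate 3. In knockout replicate 5 Hbb-b1 was at 10.59. On average 3 of the 12 B-cell markers, 4 of 10 T- and NK-cell markers and 5 of 13 neutrophil and monocyte markers lay below the negative controls. The highest array of the erythroid and of the B-cell list was wild-type replicate 6, where the clustered histone rows stood at 0.00. In wild-type replicate 4 the erythroid list stood at -0.12 and the B-cell list at -0.25, and in knockout replicate 5 at 0.26 and 0.15. Against 44.1% of all transcript clusters, 11 of 13 neutrophil and monocyte markers, 6 of 7 megakaryocyte markers, 7 of 8 mast cell, basophil and eosinophil markers, 7 of 12 erythroid markers and 6 of 10 T- and NK-cell markers were higher in knockout. Of the B-cell markers 10 of 12 were lower, and of stromal and endothelial markers 9 of 10. The erythroid list held 2 genes at an unadjusted p under 0.05, Car2 at -0.38 and Tfrc at 0.47 (limma adjusted p = 0.916 for each). The stromal list held 1, Cdh5 at -0.19, and the remaining marker lists held none. Of all transcript clusters 4.08% reached that level. The neutrophil and monocyte list had means of 6.26 to 6.98 in knockout and 6.25 to 6.48 in wild type, and the megakaryocyte list 6.40 to 7.54 and 6.57 to 7.26. The part of these markers in the histone values was not tested.

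**Figure D5:**
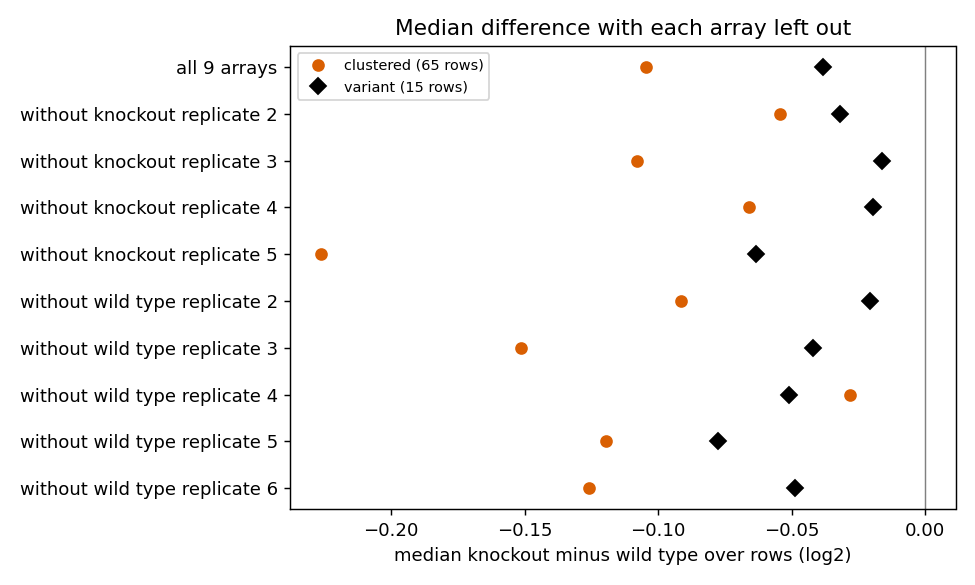
Median knockout minus wild type over the rows (horizontal axis, log2) with all 9 arrays and with each array left out (vertical axis), for clustered (circles) and variant rows (diamonds). The clustered median runs from -0.23 without knockout replicate 5 to -0.03 without wild-type replicate 4, and each median lies below 0.

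Leaving out an array that held the peaks shifted the median over the clustered rows. These 2 arrays were picked as highest in these rows, so the direction of each shift was largely set by that choice. Each shift was smaller than the pooled SD of 0.18 between arrays of a genotype in the mean of the clustered rows. Without knockout replicate 5 the clustered median was -0.23 and 8 histone rows had an unadjusted p under 0.05, where 5.87% of all transcript clusters did. These were H2afv, Hist1h4d, Hist1h2ak and 4 rows of Hist2h2aa1, all lower in knockout, and a Hist1h3d row that was higher; the smallest limma adjusted p was 0.831. Without wild-type replicate 4 the clustered median was -0.03, and the count was 0 of 80, with 2.87% of all. Without knockout replicate 2 it was -0.05.

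In the separately normalized pair of arrays the direction over the clustered rows was the other way. There 56 of the 65 rows were higher in knockout, against 14838 of all 28944 transcript clusters. The median difference was 0.29, against 0.01 over all. Rows with near-identical profiles over the 9 arrays repeat each other in these counts. All 12 H4 rows were higher, with a median of 0.44, and 17 of 20 H2A rows, with a median of 0.36. Hist2h2ab had 9.94 for knockout and 9.64 for wild type, and Hist1h2bm had 8.87 and 8.62. The variant rows had 8 of 15 higher and a median of 0.00. With 1 array a genotype this difference has no replicate check. With all 11 arrays in 1 limma model and a term for the table, the clustered median was -0.04 and the variant median -0.04. In that model 0 histone rows had an unadjusted p under 0.05, against 3.25% of all transcript clusters.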

How the data were processed

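The authors deposited log2 gene-level RMA signals, default settings per the file headers and made with Affymetrix Expression Console per the submitters' processing notes (version not given in the sources used here), in tables of 9 and 2 arrays normalized separately. Each column equalled 1 column of the deposited value table within 5e-05, which gave its replicate number. The 6612 control rows were left out. Symbols are those of the file, on NCBIM37; 79 of the 80 histone rows matched a current RefSeq symbol by accession. Differences were fitted with limma 3.58.1 in R 4.3.3 (lmFit, eBayes, two-sided, Benjamini-Hochberg over 28944 transcript clusters, threshold 0.05). The fit was tested on simulated data. Arrays have no read depth, and precision is limited by their number. The series' design text names a t-test, run as an alternative beside other normalizations, samples, filters and variance models. The members and lists were chosen with earlier results of these data known. Rows named by rule were all variant rows above the median signal, the 12 clustered rows of smallest p and, in each clustered family, the rows of highest mean and of largest spread, and up to 4 genes of smallest p in each comparison list. For a listed gene with several rows the row of highest mean was used. Figures were drawn with matplotlib 3.10.9.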

Additional observations from a re-analysis of the deposited data

Results flagged for a closer look

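Of 84 groups of 4 or 5 arrays screened for an array far from the others, 7 held one, where chance gives about 4. Knockout replicate 2 was low in Hist1h1c, at 7.83 with the next array at 9.24, and high in Hist2h3c2, at 6.40 with the next at 4.24. Wild-type replicate 5 was high in Hist1h2ab, at 9.37 with the next at 7.36, a gap just past the limit. Wild-type replicate 4 was high in a Hist2h2aa1 row, at 9.45 with the next at 9.13. Knockout replicate 3 was low in H2afy2, at 6.17 with the next at 6.91, and in H2afb1, at 6.54 with the next at 6.65. Knockout replicate 4 was high in H2afx, at 8.79 with the next at 8.57.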

How the results depend on the processing

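No histone row passed limma's adjusted threshold under any of 19 alternatives. At an unadjusted limma p under 0.05 the count was 0 to 8 of the 80 histone rows with each array left out. In these fits 2.76% to 5.87% of all transcript clusters reached that level. With quantile normalization of all 11 arrays the count was 2 of 80 (H2afv and Hist1h2aa), against 4.41% of all. Of 35 named rows 16 kept their direction throughout. With each array left out the median residual SD ran from 0.247 to 0.323 over clustered and from 0.136 to 0.177 over variant rows. The differences that changed sign when single arrays were left out ran from -0.127 to 0.024 for H1f0, -0.056 to 0.021 for H2afb1, -0.075 to 0.053 for H2afj, -0.153 to 0.058 for H2afx, -0.098 to 0.030 for H2afy and -0.284 to 0.045 for H2afy2. They ran from -0.0029 to 0.139, -0.050 to 0.056 and -0.051 to 0.064 for the H3f3a rows, and from -0.241 to 0.069 for H3f3b. Among clustered rows they ran from -0.474 to 0.076 for Hist1h1c, -0.618 to 0.088 for Hist1h2ab, -0.188 to 0.054 for a Hist1h2ao row, -0.353 to 0.096 for a Hist1h2bc row, -0.248 to 0.127 for a Hist1h2be row, -0.192 to 0.107 for a Hist1h3g row, -0.124 to 0.148 for a Hist1h4b row and -0.395 to 0.173 for Hist1h4f. With all 11 arrays and a table term, Hist1h2be turned to 0.022, H2afb1 to 0.010, H2afj to 0.027 and 2 H3f3a rows to -0.0024 and -0.016. With median centring H2afb1 turned to 0.019, H2afj to 0.019 and H2afx to 0.025, and with quantile normalization an H2afz row to 0.0085. Deviations of same-numbered arrays correlated at 0.133, 0.110, 0.120 and -0.242. Arrays of different numbers were not compared, so these values cannot show whether the replicate numbers pair the arrays. With the replicate number as a block, where unpaired wild-type replicate 6 adds nothing to the difference, 0 histone rows had an unadjusted p under 0.05 in limma, as against 1526 of all transcript clusters. The clustered and variant medians were then -0.126 and -0.049, the median residual SDs 0.378 and 0.146, and Hist1h2be turned to 0.012, H2afj to 0.0021 and H2afx to 0.058. The cause of these changes was not tested. Rows below the negative controls carry little signal over background.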
